A study of Mus musculus with 20 samples.

Results

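The transcripts of the extensor digitorum longus (EDL), a fast muscle of the mouse hindlimb, were described in the control group of a study of class IIa histone deacetylases. The group holds 5 of the 20 arrays of the series, 1 array for each of 5 animals, and was chosen by its labels alone. Per the labels, male C57Bl6 mice 8 weeks old received 30 µL of an rAAV6 vector without an insert into the left hindlimb, and 4 weeks later an intraperitoneal injection of the vehicle, 5% DMSO in PBS. The other leg of each animal received vectors for dominant-negative HDAC4 and HDAC5, so the control muscle came from an animal that carried these in the right leg. The animals are called EV 1 to EV 5, after the empty vector. No untouched muscle is among the samples, and the time between the vehicle and the collection of the tissue is not stated. With 1 group there is no contrast and no test, so each value below is a level or a spread between 5 animals. Among the 27376 gene names on the array, the most abundant, those not detected, and those that varied most between animals are given in turn.

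The EDL lifts the toes and foot and is built almost wholly of fast fibres. Such fibres carry fast isoforms of myosin, troponin and the calcium pump, split glycogen to lactate at a high rate, and contract and relax within a short time. Slow fibres, which are plentiful in the soleus, carry separate slow isoforms and rest more on the mitochondria. Between the fibres lie capillaries, fibroblasts, nerve twigs, macrophages and some fat cells, and the muscle ends in tendon on bone.

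A level is the log2 of the processed spot intensity minus the log2 of the array's 75th percentile of all non-control spots, so a level of 0 is the brightness of that percentile. The percentile lay between 379 and 544 intensity units, and from 51.7% to 59.9% of spots passed the scanner software's test for standing well above background. Any pair of the 5 arrays correlated at r between 0.960 and 0.977 over 19167 spots, which are not independent replicates. Each array lay on a slide of its own, so slide and animal cannot be told apart. A probe's brightness holds its own affinity as well as the amount of transcript, so an order of genes by level is an order of probe signals.

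The labels were set beside marker genes. All 15 fast-fibre contractile genes were well above background on all 5 arrays, against 61.5% of all gene symbols, with a median level of 7.25, against 0.61 for all genes detected on every array. The 4 Y-linked genes of the list were above background on all 5 arrays, Eif2s3y at 2.41 ± 0.17 (SD, n = 5), while Xist, the transcript that coats the inactive X chromosome of females, was above background on none. Of 8 hindlimb patterning genes, 6 were detected on every array, a share not far from that of all symbols, among them Hoxc9 at 2.40 ± 0.27 and Hoxc10 at 1.59 ± 0.25 (SD, n = 5). Hoxd10 was above background on 2 arrays and Tbx4 on 1. Pitx1, which gives the hindlimb its identity in the embryo, had levels of −0.83, −1.24, −1.56, −2.53 and −3.34 in EV 1 to EV 5, and its SD of 1.02 was the only one above 1 among the 6. Of 3 forelimb genes, Tbx5, its counterpart there, was above background on no array, Hoxc5 on 4, and Hoxc4 on all 5 at −1.23 ± 0.24 (SD, n = 5). Hdac4 and Hdac5, which the vectors of the opposite leg were aimed at, gave levels of 0.95 ± 0.23 (SD, n = 5) and 3.19 ± 0.35 (SD, n = 4).

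The brightest probes belonged to the fast sarcomere, to oxidative phosphorylation and to glycolysis. Of all the genes, the first 30 by mean level ran from 7.78 for Tnnc2, the calcium-binding troponin of fast fibres, to 7.36 for Ldha, the muscle lactate dehydrogenase. The next gene below was Atp5j at 7.36, and 4 clone or locus names were passed over. The scanner was at its upper limit here: 20 of the 30 probes were saturated on all 5 arrays and 29 on at least 1. Their levels are therefore lower bounds, and their order is not settled. Without saturated spots, or with the mean of all probes of a gene, 9 of the 30 remained.

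**Figure D1:**
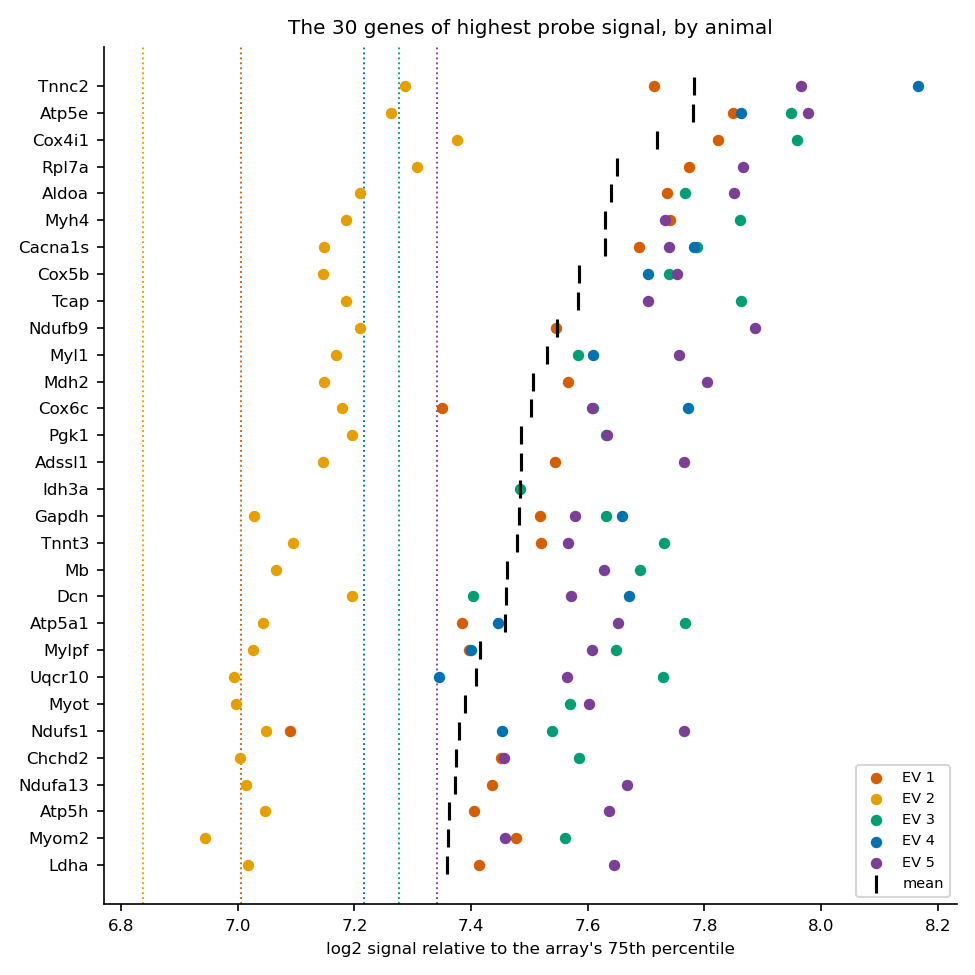
Log2 signal relative to the array's 75th percentile (horizontal axis) of the 30 genes of highest mean (vertical axis), with 1 dot per animal, a black bar for the mean over the arrays whose spot was kept, and a dotted line at the median level of each array's saturated spots. The dots of EV 2 lie lowest in each of the 29 genes it measured, as does its dotted line at 6.84, and the saturated spots of EV 5 have the highest median, 7.34.

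Tnnc2 had levels of 7.71, 7.29, 8.17 and 7.97 in EV 1, EV 2, EV 4 and EV 5, with its spot on the EV 3 array left out because the scanner software had marked it. Myh4, the myosin heavy chain of the fastest fibres (probe A_52_P602147), had 7.74, 7.19, 7.86 and 7.73 in EV 1, EV 2, EV 3 and EV 5, a mean of 7.63 ± 0.30 (SD, n = 4). EV 2 was lowest in both genes. Further fast-sarcomere genes among the 30 were Myl1, Mylpf and Tnnt3, the fast light chains and fast troponin T, together with Tcap and Myot of the Z-disc and Myom2 of the M-band. Cacna1s, the voltage sensor of the T-tubule that starts calcium release, was measured in every animal at 7.69, 7.15, 7.79, 7.78 and 7.74 in EV 1 to EV 5. Again EV 2 was lowest and the other 4 lay close together.

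The mitochondrial chain supplied Cox4i1, Cox5b, Cox6c, Ndufb9, Ndufs1, Ndufa13, Uqcr10, Atp5a1, Atp5e and Atp5h, and the citrate cycle Mdh2 and Idh3a, the second of which was kept on 1 array only. Atp5e, a small subunit of the ATP synthase, had 7.85, 7.26, 7.95, 7.86 and 7.98 in EV 1 to EV 5. From glycolysis came Aldoa, Pgk1, Gapdh and Ldha, and Aldoa, the muscle aldolase, had 7.74, 7.21, 7.77 and 7.85 in EV 1, EV 2, EV 3 and EV 5. In both genes EV 2 lay below the other animals. Mb, the oxygen store myoglobin, Adssl1 of the purine nucleotide cycle, the ribosomal protein gene Rpl7a and the mitochondrial protein gene Chchd2 completed the muscle-fibre genes. One gene of the connective tissue stood among the 30, Dcn, which codes for the proteoglycan decorin, at 7.20, 7.40, 7.67 and 7.57 in EV 2 to EV 5.

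Whole groups of fibre genes were bright. The median level was 7.10 for 26 genes of oxidative phosphorylation, 7.05 for 6 phosphotransfer genes, 7.02 for 20 glycolytic and glycogen genes, 6.62 for 18 genes of the Z-disc, M-band and scaffold, and 6.41 for 24 cytoplasmic ribosomal protein genes. Each of these lists was detected on every array in full. Calcium-handling genes had a median of 5.32 and genes of fatty acid uptake and oxidation 5.11. On all 5 arrays, 106 genes were saturated, which is 0.387% of the genes, and 12 of the 15 fast-fibre genes were among them, as were Ckm, the muscle creatine kinase, Eno3, the muscle enolase, and Fabp3, the fatty acid carrier of muscle and heart. Myh8, the perinatal myosin, was saturated on all 5 arrays at 7.13 ± 0.20 (SD, n = 5), as were Myh1, Myh2 and Myh4. Probes of near-identical family members may not tell them apart on such an array, and whether this bears on Myh8 was not tested. Embryonic Myh3, in the same myosin family, had −0.87 ± 0.30 (SD, n = 5).

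Among bright genes that were not saturated on any array, Slc2a4, the insulin-regulated glucose transporter, had 6.88, 6.83, 7.24, 7.12 and 7.12 in EV 1 to EV 5. Ryr1, the calcium release channel, had 6.91, 6.95, 6.95 and 7.19 in EV 1, EV 2, EV 4 and EV 5. In EV 2, Slc2a4 lay at and Ryr1 above the median of that array's saturated spots, 6.84. Nr4a1, an immediate early nuclear receptor, was bright in every animal, with 6.23, 6.49, 6.69, 6.87 and 6.85, while its relative Nr4a3 was above background on no array. Of the atrophy genes, Trim63 and Fbxo32, the muscle ubiquitin ligases, averaged 5.08 ± 0.36 and 3.32 ± 0.14, and Mstn, the growth-limiting factor myostatin, 1.92 ± 0.63 (SD, n = 5 each). The clock output genes Dbp and Tef averaged 5.48 ± 0.33 and 4.62 ± 0.11 (SD, n = 5 each), and of 16 clock genes only Npas2 was above background on no array.

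The myogenic regulators were ordered with the late one on top. Myf6, the factor of mature fibres, had 4.30 ± 0.16, Myod1 0.72 ± 0.22, Myog −1.07 ± 0.49 and Pax7, a marker of satellite cells, −2.69 ± 0.40 (SD, n = 5 each). Myf5 and Pax3 were above background on no array. Mef2d and Mef2c, the MEF2 factors that class IIa histone deacetylases bind, had 4.75 ± 0.36 and 3.78 ± 0.21, and Mef2a −0.32 ± 0.16 (SD, n = 5 each). These are signals of separate probes, so the order is not one of transcript numbers.

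The bases before the transcription start are shown for a few fast and slow contractile genes. Myh4 and Myh1 are shown as fast myosin genes whose probes were saturated, Tnnt1, Tnni1 and Myh7 as slow genes with a large spread between animals, described further on, and Myoz2 as the gene of either list that held the MEF2 core. They are RefSeq sequences of the build GRCm38.p6, the 120 bases before the start, read 5′ to 3′ on the gene's strand. Capitals mark 3 motifs found on either strand, the TATA box TATAAA, the MEF2 core (CTA and TAG with any 4 bases between) and the E-box CAGCTG that myogenic factors bind, of which the first can lie inside the second. Myh4 is at chr11:67237692-67237811 on the plus strand, Myh1 at chr11:67199982-67200101 on the plus strand, Tnnt1 at chr7:4515976-4516095 on the minus strand, Tnni1 at chr1:135799301-135799420 on the plus strand, Myoz2 at chr3:123034988-123035107 on the minus strand and the second start of Myh7 at chr14:54994550-54994669 on the minus strand.
Myh4: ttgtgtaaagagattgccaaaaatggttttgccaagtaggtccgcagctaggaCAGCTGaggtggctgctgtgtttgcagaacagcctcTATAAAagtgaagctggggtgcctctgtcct
Myh1: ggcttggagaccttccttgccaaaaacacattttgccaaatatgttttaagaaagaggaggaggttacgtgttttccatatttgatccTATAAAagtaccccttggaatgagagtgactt
Tnnt1: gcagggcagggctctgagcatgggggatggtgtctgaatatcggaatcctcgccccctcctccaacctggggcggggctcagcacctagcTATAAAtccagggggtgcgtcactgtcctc
Tnni1: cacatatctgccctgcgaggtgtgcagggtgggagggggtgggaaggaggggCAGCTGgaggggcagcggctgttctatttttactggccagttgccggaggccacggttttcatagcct
Myoz2: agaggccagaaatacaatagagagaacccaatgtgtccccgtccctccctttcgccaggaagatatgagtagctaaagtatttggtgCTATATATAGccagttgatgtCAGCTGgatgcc
Myh7: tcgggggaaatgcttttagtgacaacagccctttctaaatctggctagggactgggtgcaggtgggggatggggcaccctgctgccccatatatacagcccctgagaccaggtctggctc

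A TATA box lay close before the start in Myh4, Myh1 and Tnnt1, and none of the 3 motifs was found in the stretch of Myh7. The E-box was in the stretches of Myh4, Tnni1 and Myoz2, and the MEF2 core in that of Myoz2. Within 250 bases before the start, TATAAA was in 3 of 12 fast-fibre promoters and 2 of 15 slow-fibre promoters, against 12.4% of all 32851 promoters. CAGCTG was in 5 of 12 fast-fibre and 5 of 15 slow-fibre promoters, against 13% of all, and the MEF2 core in 0 and 1, against 3.2% of all. The 12 fast-fibre promoters belong to 11 genes and the 15 slow-fibre promoters to 10. A match of letters is a description of the window only.

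Of the 27376 gene names, 10062, or 36.8%, were well above background by no probe on any array, 13272, or 48.5%, on all 5, and 4042 on some. Among 17597 gene symbols the shares were 25.2% and 61.5%, with the clone and locus names left aside. Clone and locus names made up 5624 of the 10062 undetected names. Of 916 olfactory receptor genes, 788 were above background on no array and 26 on all 5. All 13 bitter taste receptors, all 4 trace amine receptors and all 28 beta-defensins were above background on none, as were 19 of 22 genes of the prolactin family and 30 of 43 keratin-associated proteins. Among families with mixed members, 45 of 88 cytochromes P450, 42 of 87 potassium channels and 45 of 83 interleukins and their receptors were undetected.

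At the other end, every mitochondrial ribosomal protein on the array was detected in all 5 animals, 47 of the large and 29 of the small subunit. So were all 18 Ndufa, 10 Ndufb and 8 Ndufs genes of complex I and all 7 proteasome ATPases. Zinc finger genes named Zfp were detected on all 5 arrays in 267 of 340 cases and mitochondrial carriers of the Slc25 family in 34 of 44.

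**Figure D2:**
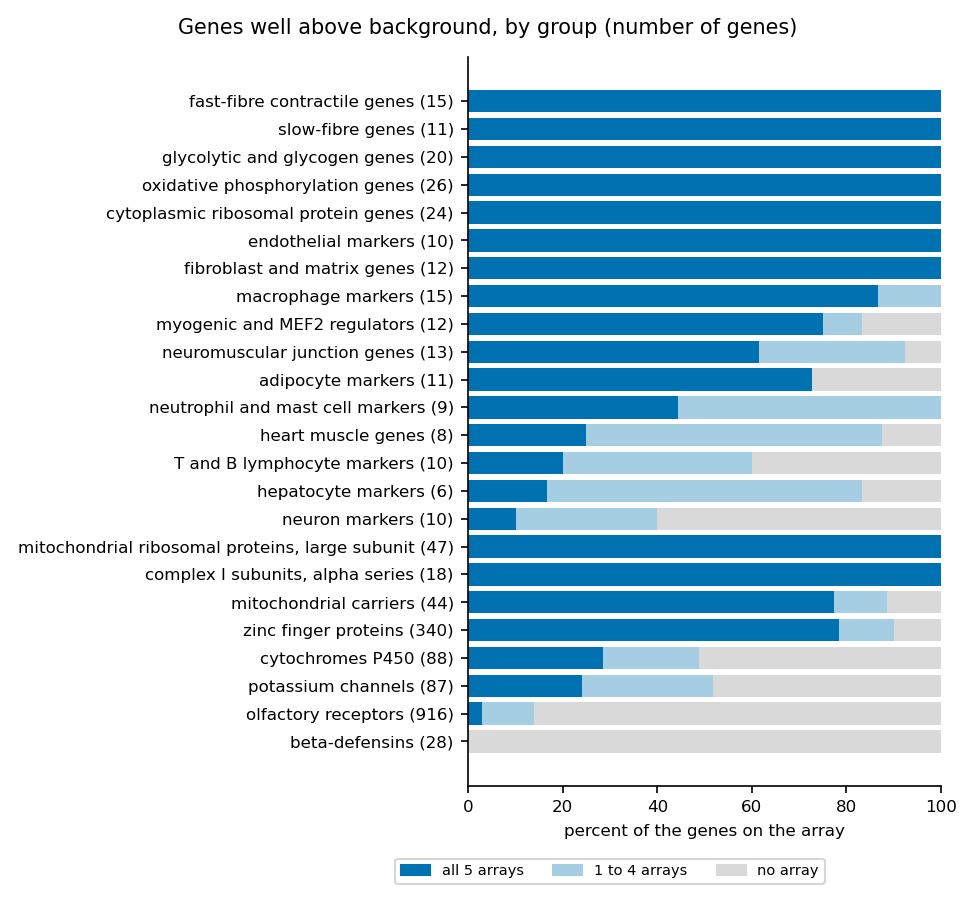
Share of the genes of each group (percent, horizontal axis) that were well above background on all 5 arrays (dark blue), on 1 to 4 (light blue) and on none (grey), with the number of genes on the array in brackets. Fast-fibre, oxidative and mitochondrial ribosomal genes fill the dark end, and olfactory receptors and beta-defensins the grey end.

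Markers of cell types that touch the fibres were detected in part, to be read against the 61.5% of all symbols detected on every array and the 25.2% on none. All 10 endothelial markers and all 12 fibroblast and matrix genes were above background on every array, as were 13 of 15 macrophage markers and 8 of 11 adipocyte markers. The adipocyte genes not detected were Lep, Adig and Ucp1, the last of these the uncoupling protein of brown fat. Neuron markers were detected on all 5 arrays in 1 of 10 cases, Tubb3, and on none in 6, which include the 3 neurofilament genes Nefl, Nefm and Nefh. T and B lymphocyte markers were detected on every array in 2 of 10 cases and on none in 4, Cd3d, Cd3g, Cd79a and Cd8a. Of 13 genes of the neuromuscular junction, 8 were detected on every array, the same share as of all symbols, among them the adult receptor subunit Chrne at 2.05 ± 0.30 (SD, n = 5), and Colq on none. Fgf21, a hormone that stressed muscle can release, was also undetected.

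A probe that is not above background does not show that the transcript is missing. Rps6, a ribosomal protein gene that all cells use, has 2 probes. The first was above background on no array, with levels between −6.60 and −5.91, and the other was above background on all 5 but its spot was marked as uneven on each, so it gave no level. The lowest level that counted as well above background on an array was between −4.68 and −3.88.

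Between animals most genes differed little. Over 12180 genes whose probe was above background on all 5 arrays with no marked spot, the SD had a median of 0.26 on the log2 scale, with the 10th percentile at 0.13 and the 90th at 0.57. With another background correction, normexp, the median was 0.46. The SD was over 1 in 292 of them, or 2.4%. Probes printed in 10 spots gave the error within an array: over 117 such probes above background, the median SD between spots of 1 array was 0.15, that between the array means 0.27, and the second was the larger in 95 of 117.

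The steadiest genes among those above the median level had an SD of 0.03 to 0.05. Fam168b had 2.77, 2.75, 2.82, 2.78 and 2.81 in EV 1 to EV 5. The others were Trub1, a pseudouridine synthase, Scfd1 of vesicle transport, Rere, a nuclear corepressor, Slc35e2, Lmo4, Vwa1, Yipf6, Lrrfip2 and Arid1a, a subunit of a chromatin remodeller. The probe of Scfd1 lay in a zone of uneven spots, described below, and its 2 other probes had SDs of 0.26 and 0.51. Second probes of Trub1, Slc35e2, Lmo4, Yipf6 and Lrrfip2 had SDs of 0.07 to 0.31. Among common reference genes, Ywhaz at 1.72 had an SD of 0.07, Hprt at 3.46 of 0.10, Ppia of 0.15, Actb of 0.23 and Gapdh, saturated throughout, of 0.26 (n = 5 each). Slc6a8, the creatine transporter, had 4.23, 4.26, 4.36, 4.30 and 4.41.

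**Figure D3:**
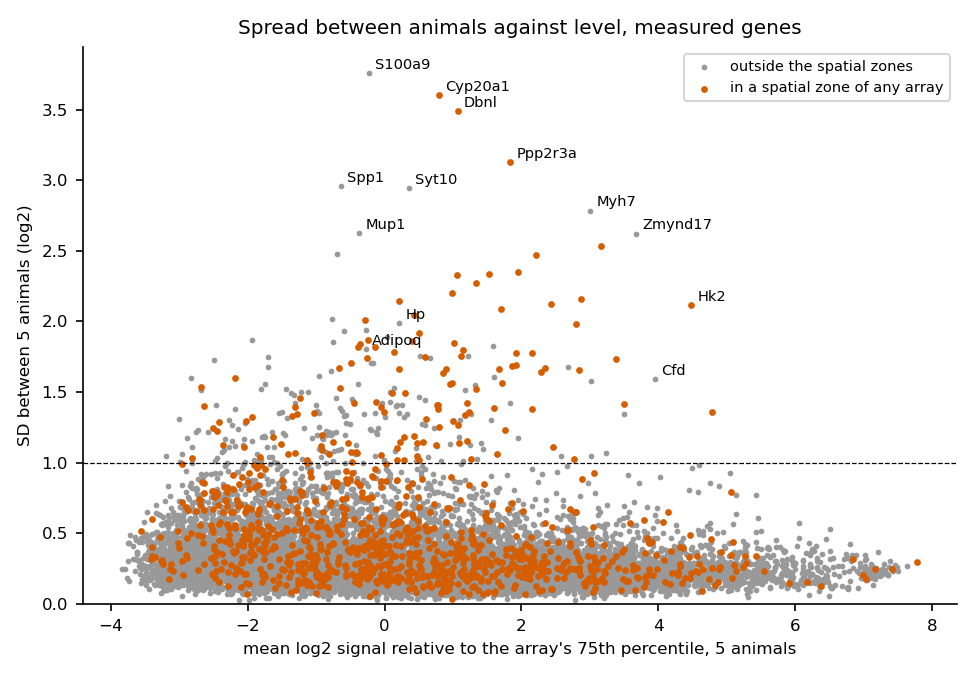
SD between the 5 animals (log2, vertical axis) against mean log2 level (horizontal axis) for each of the 12180 measured genes, with genes whose probe lies in a spatial zone of any array in orange and the dashed line at an SD of 1. Of 292 genes above the line, 120 are orange, and S100a9 lies highest.

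Spots far from the other arrays lay in clusters on the surface of some arrays. On EV 5, 437 spots were dimmer than the median of the other 4 by more than a log2 of 2, where the remaining arrays had 23 to 49 such spots, and 299 of them lay in zones that form a diagonal streak. On EV 4, 1070 spots lay as far above, 582 of them in bright patches along an edge. Dim spots were counted only where the median of the other arrays was over −1, and bright spots at any level, above background or not. Zones were drawn around such clusters of spots on any array, and held 10.6% of all spots. They held 41.1% of the genes with an SD over 1, against 8.41% of the measured genes, an excess that the way zones were drawn fixes. With zone spots left out of every array, 11665 genes had a median SD of 0.25, and 177, or 1.52%, an SD over 1.

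**Figure D4:**
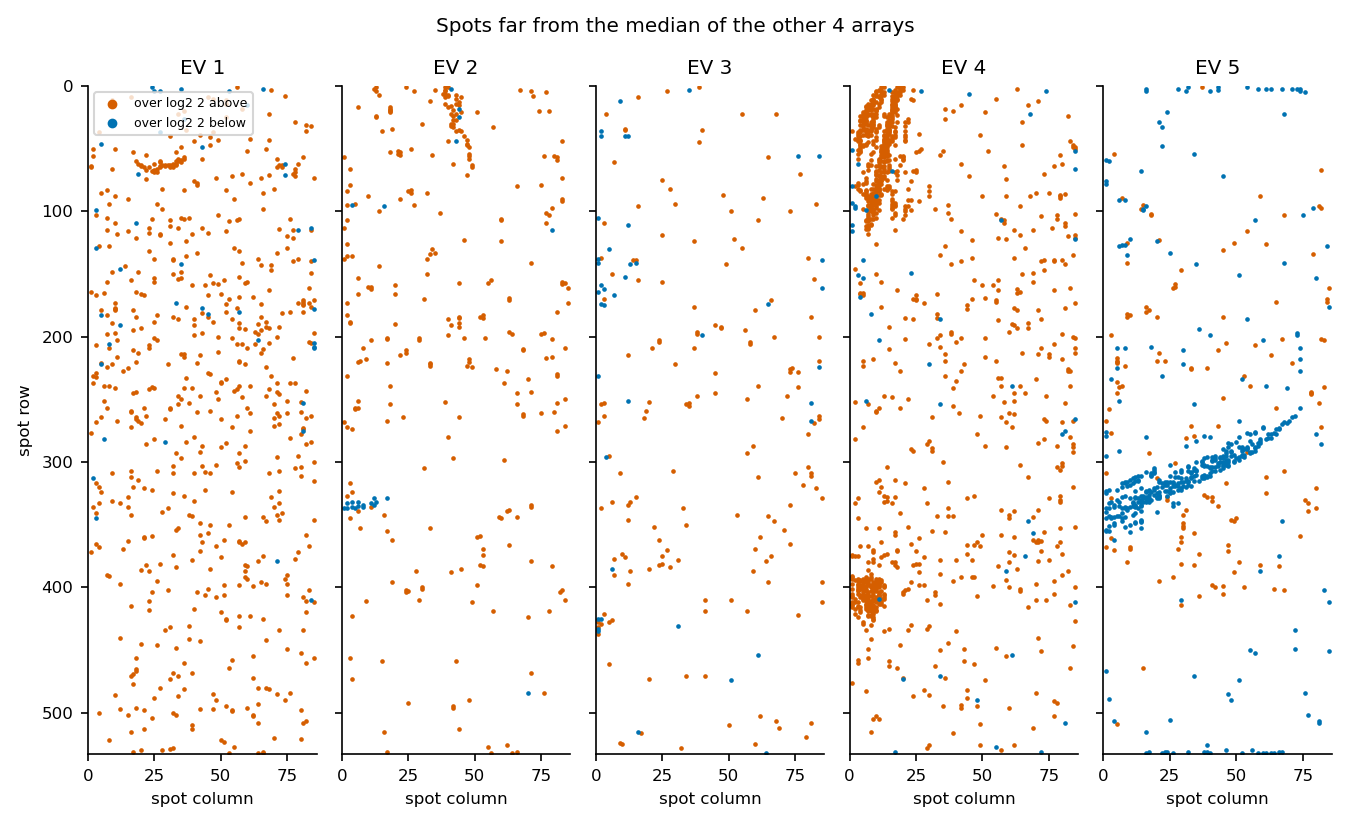
Place on the array (row down the page, column across) of each spot more than a log2 of 2 above (orange) or below (blue) the median of the other 4 arrays. Blue spots are drawn only where that median was over −1, and orange spots at any level. EV 5 holds a blue streak and EV 4 orange patches at the left, whereas the 615 orange spots of EV 1 are scattered over the surface.

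The 30 genes of largest SD, from 3.76 to 1.89, divide by these zones. The next was Pgrmc1 at 1.86, and 1 clone name was passed over. In all, 18 lay in zones, and 15 of those were low on EV 5 by more than a log2 of 2: Ppp2r3a, Luc7l3, Osbpl9, Id3, Gna13, Pcmtd2, Ado, Golt1b, Smad4, Hk2, Timm22, Pxk, Fxyd5, Fzd4 and Rnf20. Hk2, the insulin-responsive hexokinase of muscle, had 5.07, 5.61, 5.43, 5.58 and 0.71 in EV 1 to EV 5. Cyp20a1 and Dbnl were high on EV 2 alone, where Dbnl had 7.30, against −0.77 to −0.30 on the other arrays. A second probe of Dbnl had an SD of 0.19. The genes described next lay outside the zones unless it is said otherwise. They come from the 30, from the 30 of largest SD without zone spots, or from the gene lists. Both sets of 30 share 12 genes. Genes named from a list need not be among the most variable, and some were not above background on all 5 arrays.

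Several slow-fibre genes varied together. Myh7, the slow myosin heavy chain (probe A_52_P88033), had levels of 5.56, 5.82, 3.30, −0.35 and 0.71 in EV 1 to EV 5, a 71.8-fold range in signal. EV 1 and EV 2 were high, EV 3 lay between, and EV 4 and EV 5 were low. Tnni1, slow troponin I, had 1.64, 1.94, −0.88, −0.80 and −0.64, and Tnnc1, the troponin C of slow fibres and heart, 0.58, 1.04, −1.12, −2.01 and −1.77. Atp2a2, the slow calcium pump, had 2.60, 2.61, 0.91, 0.07 and 0.84. In each of them EV 1 and EV 2 stood above the other 3 animals with no overlap. A second probe of Tnni1 had an SD of 1.64, and one of Atp2a2 of 0.35 only.

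Myl2, the slow regulatory light chain, followed the same order at 5.69, 4.62, 1.34, 0.80 and 1.91, but its probe lay in a zone. Tnnt1, slow troponin T, was kept in EV 2 to EV 5, at 3.97, 1.87, 0.49 and 1.07. Myh6, the alpha myosin heavy chain of the heart, had 1.16, 1.03, −0.88, −2.99 and −2.11, and a second probe had an SD of 1.39. The sequences of Myh6 and Myh7 are near-identical, so their probes cannot be told apart with certainty. Of the other 7 genes of the heart list, Gja5, a connexin, was above background on all 5 arrays at −1.23 ± 0.11 (SD, n = 5), 5 were on some arrays, and Myl7, the atrial light chain, on none.

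Of 7 measured slow-fibre genes 5 had an SD over 1, their median SD was 1.39, and 5 had EV 1 and EV 2 as the 2 highest. Over all measured genes the median SD was 0.26, and 8.17% had EV 1 and EV 2 highest. Without zone spots, which leaves out Myl2, 4 of 6 slow-fibre genes did, against 8.04% of all. Not all of the list took part. Casq2, the calsequestrin of slow fibres and heart, had 1.41, 0.49, 1.69, 0.64 and 2.30 in EV 1 to EV 5, highest in EV 5. Csrp3, a LIM protein of the Z-disc, had 3.93, 5.37, 3.15 and 4.32 in EV 2 to EV 5, highest in EV 3, and Myoz2, a Z-disc protein of slow fibres, was kept in EV 2 to EV 4, with 3.87 in EV 2, 3.35 in EV 4 and its highest level in EV 3. Tpm3, slow tropomyosin, lay between 3.38 and 3.99. Myl3, the slow essential light chain, was saturated on all 5 arrays. The 5 measured members of the fast-fibre list had a median SD of 0.20. EV 2 was lowest in 4 of them and EV 1 in 1, against 22.9% and 28.7% of all measured genes. As 12 of the 15 fast-fibre genes were at the ceiling, their SD cannot show whether the list mirrored the slow-fibre genes. In a whole muscle, more cells of a type and more RNA in each of them cannot be told apart.

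Fat-cell genes also had EV 1 and EV 2 highest. Adipoq, the hormone adiponectin (probe A_51_P458451), had 2.24, 1.01, −1.23, −1.41 and −1.96 in EV 1 to EV 5. Cfd, adipsin, had 6.13, 5.15, 3.15, 2.74 and 2.59, and Cidec, a protein of the lipid droplet, 3.60, 2.59, 0.34, −0.16 and −0.24. In all 3 genes EV 1 was highest, EV 2 next, and the other animals clearly lower. Retn, resistin, had 0.52, −0.32, −2.03, −3.44 and −3.22, and Plin1, the perilipin of fat cells, −0.07, −1.26, −3.60, −3.50 and −4.02. Fasn, fatty acid synthase, had 4.71, 4.04, 2.58, 2.47 and 2.37.

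The adipocyte list had a median SD of 1.73 over its 7 measured members, of which 5 had an SD over 1 and EV 1 highest, against 13.5% of measured genes with EV 1 highest. Pparg and Cidea, which other cells of muscle also express, were the exceptions. Pparg had an SD of 0.20 and Cidea had 0.68, 0.28, 0.62, −0.44 and 0.87. Without EV 1 the list's median SD was 1.24. Cyp2e1, a cytochrome P450 of liver and fat, had 1.95, 1.27, −1.20, −0.80 and −2.08, again with EV 1 and EV 2 on top.

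Tendon genes had a median SD of 1.00 over 4 measured members, and all 4 had EV 1 and EV 2 highest. Fmod, the proteoglycan fibromodulin, had 4.67, 4.90, 2.89, 3.44 and 1.62 in EV 1 to EV 5, and Tnmd, tenomodulin, 1.41, 1.42, 0.38, 0.39 and −0.38. Scx, the tendon transcription factor, had 3.02, 2.78, 2.10, 1.88 and 2.45, and Kera lay in a zone. Angptl7, a secreted protein of the angiopoietin-like family, had 3.15, 3.43, 0.76, 0.85 and −0.21. Here EV 5 was lowest in 3 of the 4 tendon genes, and without EV 5 the median SD was 0.57. How far the share of slow fibres, fat and tendon in the piece of muscle bears on these values was not tested.

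Transcripts of developing blood cells stood high in EV 1. S100a9, a calcium-binding protein of neutrophils (probe A_51_P402943), had 6.22 in EV 1, against −0.50, −1.11, −2.97 and −2.77 in EV 2 to EV 5, the largest SD of all measured genes, 3.76. Its partner S100a8 had 4.04 in EV 1 and −5.81 to −2.56 in the others. Camp, a granule peptide made in maturing neutrophils (probe A_51_P180423), had 1.32 in EV 1 and was above background on no other array, where it lay between −6.94 and −5.94. Its signal in EV 1 was at least 45.0-fold above the mean of the others, with a dim probe set to the lowest level that counted as above background on its array. Mpo, the myeloperoxidase of neutrophil precursors, had 2.23 in EV 1 and −5.51 to −4.36 elsewhere.

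Lists of such genes were written after these values had been seen, so their counts describe the arrays and support nothing. Of 18 neutrophil genes, 16 were above background on EV 1, against 6, 4, 2 and 2 on EV 2 to EV 5. Over 24642 genes without zone spots, 13743, 14286, 12396, 12467 and 12752 were above background on EV 1 to EV 5. In the list, 14 genes were highest on EV 1 by over a log2 of 1. Of the 24642 genes, 1.73% were highest on EV 1 by that much, and 0.816%, 0.223% and 0.292% on EV 2, EV 3 and EV 5. Ltf and Ngp, further granule proteins, were above background on EV 1 alone, at 1.66 and 1.14.

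Red-cell precursors gave the same picture. Ahsp, the chaperone of alpha-globin (probe A_52_P534583), had 2.74 in EV 1 and −6.90 to −5.81 in the others, none of them above background, so that EV 1 was at least 120-fold above their mean. Slc4a1, the anion exchanger of the red-cell membrane, had 2.25 in EV 1 and −4.17 to −3.10 elsewhere, and Alas2, the first enzyme of haem synthesis in red cells, 2.70 against −0.70 to 0.53. All 13 erythroid genes measured were above background on EV 1, against 5, 5, 5 and 4 on EV 2 to EV 5. Of them, 12 were highest on EV 1 by over a log2 of 1. Of all 24642 genes, 13743 were above background on EV 1 and 1.73% were highest there by that much.

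Cartilage and bone genes and genes of cell division were high on the same array. Col2a1, the collagen of cartilage, had 3.11 in EV 1, against 0.84, 0.11, 0.31 and −0.01 in EV 2 to EV 5. Bglap, the bone protein osteocalcin, had 5.20 in EV 1 and −2.46, 0.69, −5.69 and −6.05 in the others. Spp1, the bone and macrophage protein osteopontin, had 3.34, −1.53, 1.47, −3.69 and −2.80, and Mmp13, a collagenase of bone and cartilage, 1.25, −6.48, 0.89, −5.92 and −6.20. EV 1 was highest, and in Bglap, Spp1 and Mmp13 EV 3 came next.

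Of 18 cartilage and bone genes, 17 were above background on EV 1, against 9, 10, 7 and 7 on EV 2 to EV 5. In this list, 12 genes were highest on EV 1 by over a log2 of 1. Of all 24642 genes, 13743 were above background on EV 1 and 1.73% were highest there by that much. Mki67, a marker of dividing cells, had 1.96 in EV 1 and −2.31 to −0.58 in the others. Birc5, the division protein survivin, had 1.75, −1.99, −1.31, −1.37 and −0.64, and the histone genes Hist1h2ab and Hist1h1b had 2.57 and −0.18 in EV 1, against at most −0.66 and −2.46 elsewhere. Of 16 division genes, 10 were highest on EV 1 by that much, and EV 5 came next in each of the 4 named. With normexp background, 8 neutrophil, 5 erythroid, 3 cartilage and bone and 3 division genes were highest on EV 1 by that much. Whether marrow and bone entered the piece that gave EV 1 was not tested.

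Transcripts of the liver stood high in EV 4. Alb, the serum protein albumin (probe A_51_P160713), had 2.34 in EV 4, against −4.35, −6.85, −6.02 and −3.07 in EV 1, EV 2, EV 3 and EV 5, and was at least 83.1-fold above their mean. Mup1, a major urinary protein (probe A_51_P461703), had 3.87 in EV 4 and −0.13, −0.48, −2.61 and −2.50 in the same 4 animals. Ahsg, the liver protein fetuin-A, had 1.73 in EV 4 and −6.96 to −3.36 in the others. Fgb, a fibrinogen chain, Apoa2, an apolipoprotein, Fabp1, the fatty acid carrier of liver, and Mup3 were above background on EV 4 alone, at −0.51, −0.62, 1.08 and 1.97.

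Of 23 liver genes, 20 were above background on EV 4, against 9, 8, 7 and 8 on EV 1, EV 2, EV 3 and EV 5. Of all 24642 genes, 12467 were above background on EV 4. In the list, 16 genes were highest on EV 4 by over a log2 of 1, against 0.909% of all genes. With normexp background 5 of the list were. This list, too, was written after the values had been seen. Fga, the alpha chain of fibrinogen, Ttr and Ttpa were above background on no array. The family of major urinary proteins is near-identical, so Mup1, Mup3 and Mup4 are not separate observations. Haptoglobin, coded by Hp and made by liver and fat, did not follow it, at 2.80, 1.37, −0.25, −0.39 and −2.47 in EV 1 to EV 5. Whether other tissue or free RNA reached this sample was not tested.

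**Figure D5:**
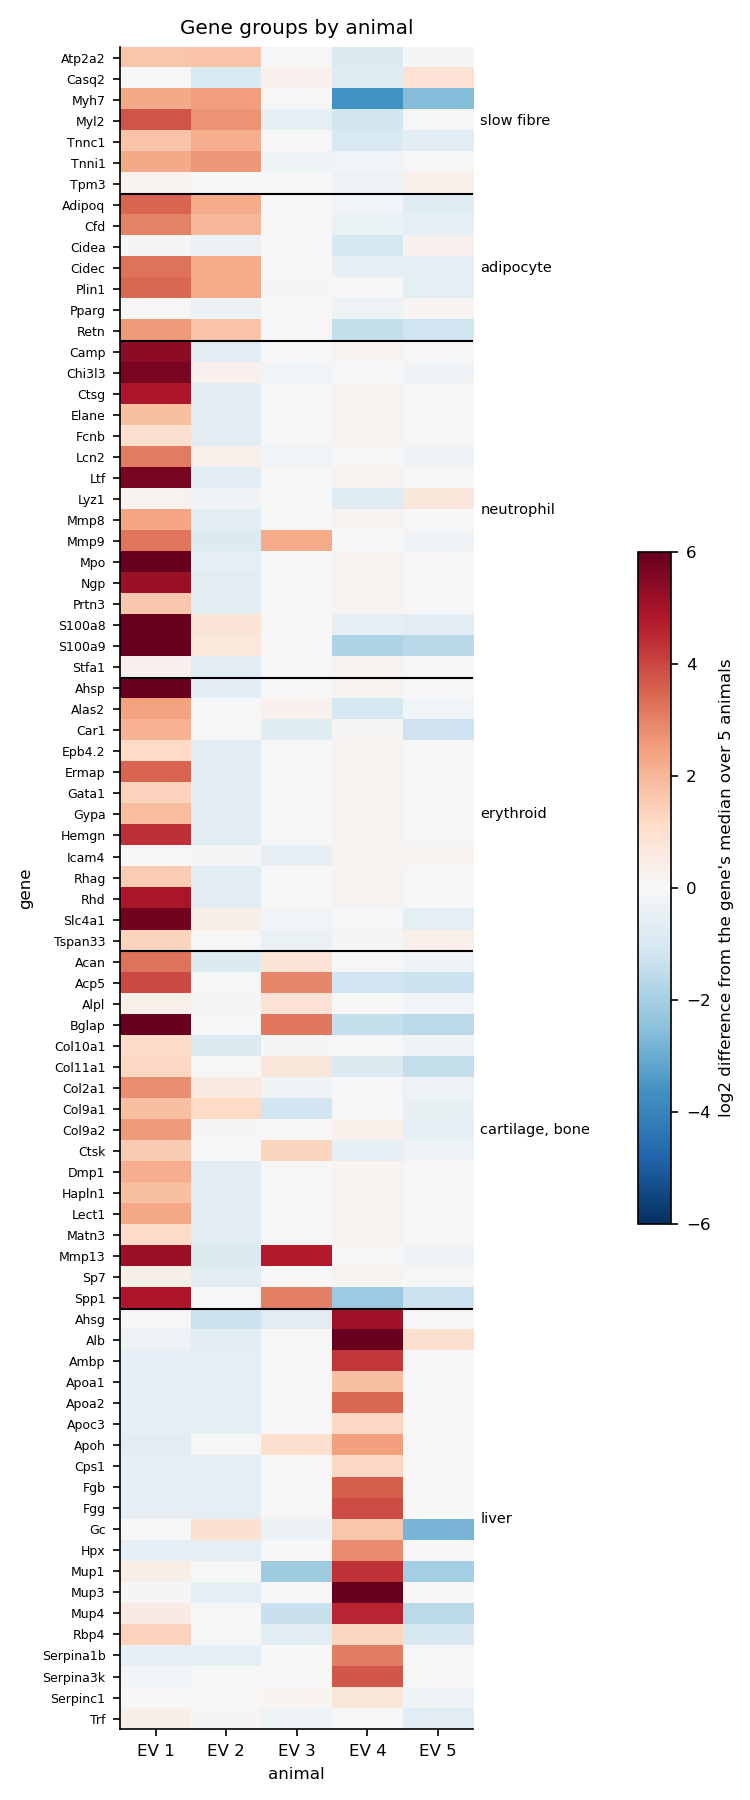
Log2 difference of each gene (rows) from its median over the 5 animals (columns), red for higher and blue for lower, with a probe not above background on an array set to the lowest level that was above it there. EV 1 or EV 2 is highest in 5 of 7 slow-fibre and 5 of 7 adipocyte genes. EV 1 is highest in 15 of 16 neutrophil, 12 of 13 erythroid and 16 of 17 cartilage and bone genes, and EV 4 in 18 of 20 liver genes. Of all measured genes, 13.5%, 10.4% and 23.5% were highest in EV 1, EV 2 and EV 4. Members above background on at least 1 array are drawn, so some enter only through the array where they are high. The neutrophil, erythroid, cartilage and bone, and liver lists were written after the values were seen, so their counts support nothing.

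Resident cells varied less, with EV 4 lowest in most macrophage and fibroblast genes. EV 1 and EV 2 were the 2 highest in 6 of 13 macrophage and 4 of 11 fibroblast and matrix genes. Over all measured genes that share was 8.17%, so the pattern of the slow-fibre, fat and tendon genes was found here in part. Macrophage markers were lowest in EV 4 in 12 of 13 cases and highest in EV 2 in 12. Of all measured genes, 18.7% were lowest in EV 4 and 10.4% highest in EV 2. C1qc, a chain of the complement protein C1q, had 1.34, 1.74, 1.05, −0.29 and 1.08 in EV 1 to EV 5, and Csf1r, the receptor of the macrophage growth factor, 0.92, 1.09, 0.64, −0.34 and 1.04. The list's median SD was 0.55 and without EV 4 it was 0.30. Fibroblast and matrix genes were lowest in EV 4 in 11 of 11 measured cases and highest in EV 1 in 9, among them Postn, the matrix protein periostin, with 2.42, 0.66, 2.12, −0.35 and 1.38.

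Mast-cell proteases had an order of their own. Cma1 had −1.89, 0.43, −0.13, −2.40 and −0.31 in EV 1 to EV 5, Cpa3 −2.71, −0.32, −0.96, −2.83 and −1.24, and Mcpt4 −0.39, 1.17, 0.66, −1.08 and 0.81. EV 2 was highest in all 3 and EV 4 lowest, and EV 1, which was high for neutrophil genes, was next to lowest. A second probe of Cma1 had an SD of 0.38. The myelin gene Mbp had 3.14, 1.65, 1.47, 0.44 and 0.50. Of 6 measured Schwann cell markers, 5 were highest in EV 1 and 5 lowest in EV 4, against 13.5% and 18.7% of measured genes. In 4 of the 6, EV 1 and EV 2 were the 2 highest, against 8.17%. Endothelial markers were highest in EV 5 in 7 of 8 cases, against 33.9% of measured genes, with a median SD of 0.42.

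A few inducible stress genes, picked for their spread, had another order again. Hspa1a, the inducible heat shock protein, had 1.41, 3.21, 2.51, 0.53 and 0.10 in EV 1 to EV 5, Hspa1b, its near-identical copy, −0.58, 0.92, 0.53, −1.95 and −2.04, and Atf3, a stress-induced transcription factor, 0.79, 2.54, 1.27, −0.93 and −0.73. EV 2 and EV 3 were highest and EV 4 and EV 5 lowest in each. The near-identical pair may not be told apart by these probes, which was not tested, and a second probe of Hspa1a had an SD of 2.39. Bag3, a co-chaperone of the Z-disc, had 5.48 ± 0.31 (SD, n = 5), so its spread was near that of all genes. The 10 measured heat shock genes had no common highest animal, as EV 1, EV 2, EV 3 and EV 5 were highest in 1, 3, 4 and 2 of them. Over all measured genes these shares were 13.5%, 10.4%, 18.7% and 33.9%. EV 4 was lowest in 5 of the 10, against 18.7% of measured genes, and their median SD was 0.45.

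A few single genes had large steps between animals. Syt10, a synaptotagmin of secretory vesicles, had −2.59, 2.63, −3.12, 2.69 and 2.16 in EV 1 to EV 5, a 55.9-fold range. Fthl17, a testis ferritin gene, had 1.99 in EV 2 and 2.12 in EV 4, against −0.39 in EV 1 and −1.87 in EV 3, with the same 3 animals high. Zmynd17, now named Mss51, a mitochondrial protein of fast muscle, had 6.13, 6.20 and 4.14 in EV 1, EV 2 and EV 4 and was lowest in EV 3 at 0.80, with EV 5 next to it. Cacna2d2, a calcium channel subunit, had −3.12 in EV 1 and −0.08, 1.14, 1.75 and 0.51 in the others. Zfp560 had −3.52, −1.04, 0.99, 1.32 and −0.74, with EV 1 lowest in both. Each of these steps rests on 1 probe. Another probe of Cacna2d2, above background on 3 arrays, had −3.54, −4.04, −4.51, −4.39 and −3.63 in EV 1 to EV 5, without the step. The remaining probes of Cacna2d2 and the other probes of Syt10 and Zfp560 were above background on no array.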

How the data were processed

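RNA of 5 muscles, 1 array each, was measured with 100 ng of input labelled with Cy3, per the labels' protocols. Per the file headers, Agilent-014868 arrays were read with Feature Extraction 9.5.1.1 (protocol GE1-v5_95_Feb07), which subtracted the background and wrote 1 processed intensity for every spot, as deposited. The deposited series matrix holds a ratio, found here to be that intensity over 1 constant per array, for 23678 probes. Its columns have medians of 0.31, 0.31, 0.27, 0.29 and 0.28, and how the authors chose the constants and probes is not given in the sources used here.

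Each deposited intensity of 43379 non-control spots (41174 probes) was turned into a log2 value, from which the log2 of the array's 75th percentile was taken. The 2653 spots marked as non-uniform or population outliers were left out, spots of a probe were averaged, and each gene took the values of its brightest probe by mean. A gene was detected when on each of the 5 arrays the software marked at least 1 of its probes as well above background, and undetected when no probe was on any. Spread was computed where the chosen probe was above background with no marked spot on all 5. Named are the 30 genes of highest level, the 30 of largest SD, the 10 of smallest SD above the median level, and members of 44 lists. Names are those of the files, and 27584 probes were matched by accession to RefSeq (GRCm38.p6). The members and lists were chosen with earlier results of these data known. The zones, the list without zone spots and 5 further lists were added after the values were seen. A zone is a window of 10 rows and 2 columns each side in which at least 10% of spots, and at least 5, lay over a log2 of 2 from the median of the other arrays. For dim zones, only spots where that median was over −1 were counted.

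The number of arrays, 5, limits the precision. The software was Python 3.11.15 (numpy 2.4.6, pandas 2.3.3, matplotlib 3.10.9) and, for the alternatives of background and scaling, limma 3.58.1 in R 4.3.3. The scripts were tested on simulated data. Alternatives tried were quantile scaling, the median of detected spots, normexp background, the mean of all probes, marked spots kept, saturated, edge or zone spots left out, the authors' matrix, other measures of spread, and each animal left out.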

Additional observations from a re-analysis of the deposited data

Results flagged for a closer look

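A value is given here when 1 animal lay far from the other 4, its gap to the nearest being above 0.71 of the whole range (Dixon's critical value for 5 samples, with the higher one for 4 where a spot was left out). Chance alone gives about 1 such value in 20 for values not chosen by their spread. Of 17 of the brightest genes with 5 values or 4, 5 had EV 2 far below: Atp5e at 7.26, Cacna1s at 7.15, Cox5b at 7.15, Gapdh at 7.03 and Myom2 at 6.94. Each was saturated on all 5 arrays, and EV 2 had the lowest ceiling.

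Of the 30 genes of largest SD, 18 had such an animal. These genes were chosen for their spread over the same animals, so the chance rate does not apply to them and the number is a description. S100a9 was high in EV 1 at 6.22, Cyp20a1 at 7.23 and Dbnl at 7.30 in EV 2. The other 15 were low in EV 5 and their probes lay in zones: Ppp2r3a at −3.75, Luc7l3 at −1.36, Osbpl9 at −2.20, Id3 at −2.63, Gna13 at −3.10, Pcmtd2 at −2.71, Ado at −2.93, Golt1b at −3.62, Smad4 at −1.36, Hk2 at 0.71, Timm22 at −2.03, Pxk at −3.23, Fxyd5 at −3.83, Fzd4 at −0.73 and Rnf20 at −2.87. EV 5 had 437 spots far below the other arrays, itself such a value among the arrays. Without zone spots, Gpr125 at −2.62, Cbwd1 at −3.20 and Hsf1 at −3.80 were also low in EV 5. The value of Hsf1 is that of a dimmer probe outside the zones, and another of its probes, inside a zone, had an SD of 0.16.

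Among 108 genes named from a list, 14 had an animal far from the rest, and the blood, cartilage and liver genes among them were listed after their values had been seen. In EV 1, Camp stood at 1.32, Ltf at 1.66, Ngp at 1.14, Mpo at 2.23, Ahsp at 2.74, Slc4a1 at 2.25, Hemgn at 0.34 and Col2a1 at 3.11, all far above the other animals. In EV 4, Fabp1 stood at 1.08, Fgb at −0.51 and Apoa2 at −0.62, far above, and Hdac5 at 2.67, below 3.35 to 3.39 in the other 3 animals with a value. Ryr1 was high in EV 5 at 7.19. Without zone spots, Lep was highest in EV 1 at −4.50 and above background on that array alone. This lay close to the lowest level that counted as such there, −4.58, and with all spots Lep was above background on no array. The numbers of list members above background were likewise far off for neutrophil genes (16) and erythroid genes (13) in EV 1 and for liver genes (20) in EV 4, which follows from how these lists were chosen and supports nothing. No median of the 35 lists tested had an animal that far from the others.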

How the results depend on the processing

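No paired analysis was possible because a single group was described. The number of genes detected on all 5 arrays was 13272 and the number undetected 10062. Scaling, background correction, averaging of probes, and marked or saturated spots do not touch the marks of detection, so these alternatives could not move either count. Without edge spots the counts were 12427 and 9241, and without zone spots 12458 and 9571, as genes drop out. Leaving out 1 animal at a time can only raise them, and gave 13278 to 13606 and 10109 to 10822. The authors' matrix, which holds no marks of detection, gave no such count. The median SD of 0.2583 was 0.4601 with normexp background and 0.2976 in the authors' matrix, and 0.2438 to 0.2611 with 1 animal left out. Of the 30 brightest genes, 9 remained with normexp background, 9 with the mean of all probes, 9 without saturated spots, 7 in the authors' matrix, and 25 to 30 with 1 animal left out. Of the 30 most variable, 19 remained with the mean of all probes, 12 without zone spots, 7 by the range of the middle 3 animals, 4 where detection on 1 array was enough, and 14 to 27 with 1 animal left out, the lowest without EV 5. Of the 30 most variable without zone spots, 17 to 27 remained with 1 animal left out, the lowest without EV 1. Of 34 lists, 6 had a median SD over 2 times that of all genes, against 2 with normexp background, 10 in the authors' matrix and 5 to 9 with 1 animal left out. The genes of the added lists that stood out by over a log2 of 1 numbered 14, 12, 12, 10 and 16 for neutrophil, erythroid, cartilage and bone, division and liver genes, and at the fewest, 8, 5, 3, 3 and 5, all with normexp background. Of the single values, summed over all alternatives, 85 of 861 mean levels and 194 of 895 SDs moved beyond their spread. The alternatives were unequal in this. With normexp background 44 SDs moved and 25 did not, and 39 mean levels moved and 31 did not. With quantile scaling 33 SDs moved and 36 did not, and 1 mean level moved and 69 did not. The cause was not tested. Signal over background limits the dim genes and saturation the bright ones.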
